A study of Mus musculus with 57 samples.

Results

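Kupffer-niche recruited macrophages (KN-RM) of the fatty, inflamed (NASH) mouse liver were set against Ly6C-high monocytes of the blood across all genes, a comparison that spans the path from a circulating monocyte to a cell of the Kupffer type. The libraries were taken by their labels, 2 of KN-RM and 2 of blood monocytes, which makes 4 of the 57 libraries of the series. The comparison and the gene lists below were chosen with earlier results of these data known. KN-RM had been sorted from liver as F4/80-high, Tim4-negative cells, and the blood cells as Ly6C-high peripheral monocytes. Both came from C57BL/6J mice on a NASH diet. The other cells of the same set were Ly6C-high recruited macrophages (Ly6C-high RM, CD11b-high and Ly6C-high, NASH diet), Ly6C-low recruited macrophages (Ly6C-low RM, CD11b-high and Ly6C-low, NASH diet), NASH Kupffer cells (F4/80-high, Tim4-positive, NASH diet) and Healthy Kupffer cells (the same gate, control diet), again C57BL/6J with 2 libraries each. The labels give neither the weeks of diet nor the age or sex for these groups, nor whether replicates were separate or pooled animals, so p-values measure the spread between these libraries, which may be technical. The KN-RM gate rests on surface proteins and is no record of descent. Liver cells were perfused, digested with Liberase under the transcription blocker flavopiridol and passed over density gradients before sorting, while the protocol text says nothing of how blood was handled. Preparation therefore differed between the groups in a way that cannot be told apart from cell type, and Ly6C-high RM, which were prepared like KN-RM, are given as a second comparison with KN-RM. The 2 comparisons share the KN-RM libraries, so their values stand side by side without a measure of overlap. Outside the set of these groups, 3 KN-RM libraries came from mice with floxed alleles of both genes of the sterol receptor LXR and no Cre. These mice had 20 weeks of NASH diet, and their libraries serve as an alternative below. For Rpl19, Kupffer cells after 4 and 20 weeks of diet are also given.

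Kupffer cells are the resident macrophages of the liver sinusoid, where they take up particles, complement-coated bacteria and ageing erythrocytes and recycle their iron. When the niche is vacant, monocytes enter it and take on much of the Kupffer programme, and Notch ligands and TGF-beta family ligands of the sinusoid together with the sterol receptors LXR alpha and LXR beta are known to take part. Ly6C-high monocytes are short-lived cells of the blood that carry Ccr2, the receptor that brings them into inflamed tissue.

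The promoters of 2 of the 20 largest rises and 2 of the 20 largest falls are shown as examples, not as typical of their group. Cd5l ranked 1 and Clec4f 3 among the rises, and Ly6c2 ranked 6 and F13a1 10 among the falls. Each line holds 300 bases, from 250 before to 50 after the start of the gene on its own strand, 5′ to 3′, from RefSeq on GRCm38.p6. Capitals mark matches on either strand to the PU.1 site GAGGAAGT, the ETS core GGAAGT, the RBPJ site TGGGAA, the AP-1 site TGANTCA, the E-box CACGTG or the SMAD box GTCTAGAC. The ETS core lies inside the PU.1 site, and RBPJ and ETS matches can overlap as TGGGAAGT. Clec4f, a galactose-binding lectin of Kupffer cells (GRCm38.p6 chr6:83656067-83656366, minus strand), and Cd5l, a secreted scavenger protein of tissue macrophages (GRCm38.p6 chr3:87357631-87357930, plus strand), rose. Ly6c2, a surface protein of the monocyte gate (GRCm38.p6 chr15:75111922-75112221, minus strand), and F13a1, the A subunit of coagulation factor XIII (GRCm38.p6 chr13:37049164-37049463, minus strand), fell.
Clec4f: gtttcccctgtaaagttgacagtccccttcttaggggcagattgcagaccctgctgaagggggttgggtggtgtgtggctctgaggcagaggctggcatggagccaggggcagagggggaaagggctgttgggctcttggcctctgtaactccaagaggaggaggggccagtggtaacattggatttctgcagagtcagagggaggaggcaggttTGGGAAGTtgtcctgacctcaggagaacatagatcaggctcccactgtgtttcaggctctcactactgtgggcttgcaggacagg
Cd5l: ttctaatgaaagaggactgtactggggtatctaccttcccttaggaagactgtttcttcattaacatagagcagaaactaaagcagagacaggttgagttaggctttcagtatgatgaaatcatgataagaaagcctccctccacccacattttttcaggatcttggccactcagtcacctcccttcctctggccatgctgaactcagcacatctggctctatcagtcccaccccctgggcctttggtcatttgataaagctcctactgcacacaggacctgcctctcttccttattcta
Ly6c2: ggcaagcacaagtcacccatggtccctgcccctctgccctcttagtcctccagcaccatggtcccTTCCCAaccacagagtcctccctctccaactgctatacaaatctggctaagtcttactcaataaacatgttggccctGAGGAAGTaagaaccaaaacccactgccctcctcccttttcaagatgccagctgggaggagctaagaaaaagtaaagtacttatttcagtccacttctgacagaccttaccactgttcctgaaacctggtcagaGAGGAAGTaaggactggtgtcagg
F13a1: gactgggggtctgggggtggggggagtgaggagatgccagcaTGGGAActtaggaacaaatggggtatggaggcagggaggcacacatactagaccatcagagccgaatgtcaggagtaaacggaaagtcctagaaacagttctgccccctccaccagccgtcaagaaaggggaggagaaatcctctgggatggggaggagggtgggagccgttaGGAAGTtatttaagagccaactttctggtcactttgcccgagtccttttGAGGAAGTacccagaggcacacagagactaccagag
The Clec4f window held overlapping RBPJ and ETS matches before the start, and the Cd5l window held none of these letters. The Ly6c2 window held 2 PU.1 matches, 1 before and 1 after the start, and the F13a1 window held 1 after it. The windows of the falls ranked above Ly6c2 (Serpinb10, Chil3, Vcan, Padi4 and Cd177) held no PU.1 letters. Those of Plcb1, Pi16, Rpl19 and Sgms2, ranked below Ly6c2, held none either. Ly6c2 and F13a1 were thus the only ones with PU.1 letters among the largest falls whose windows were looked at singly. Of the 32851 promoters of the table, 3.2% held the PU.1 letters, 23.8% the ETS core, 25.6% the RBPJ letters, 7.81% the AP-1 letters, 7.15% the E-box and 0.213% the SMAD box. The PU.1 letters stood in 35 of 494 promoters of called genes over 4-fold lower in KN-RM, in 51 of 1830 of those over 4-fold higher, and in 356 of 10453 of tested genes with a promoter in the table. A match describes these letters and no binding, and no match says only that the letters were not in the window.

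Total counts over the genes kept were 18312295 and 14996836 in KN-RM and 20206653 and 12368140 in blood monocytes, and 12368140 to 22707571 over the 12 libraries of the set. Values below are given for each library as CPM (each count scaled to a common library size by TMM), and log2 changes with their standard error (SE) come from edgeR's quasi-likelihood test over the 12 libraries. A gene was called at a Benjamini-Hochberg adjusted p under 0.05 over all 14407 genes tested, of 24941 in the table. Against blood, 8709 genes were called, which is 60.4% of the genes tested, with 4897 (34.0%) higher and 3812 (26.5%) lower in KN-RM. Past 4-fold, 2732 called genes were higher and 714 lower. The 2 KN-RM libraries lay entirely above both blood libraries for 6462 genes, entirely below for 5355, and overlapped them for 2590. Libraries that stand apart were thus the usual state of a tested gene, and each statement of no overlap below is to be read so. The split of calls depends on the scale: limma on the authors' deposited TPM, as log2(TPM + 1), gave 3215 higher and 5090 lower, and moved the median log2 change of all genes to -0.17 from 0.095. Against Ly6C-high RM, 5613 genes (39.0%) were called, 2710 (18.8%) higher and 2903 (20.1%) lower in KN-RM, and 1652 higher and 4413 lower in limma on log2(TPM + 1), where the median of all genes moved to -0.21 from 0.0080. Since most genes tested were called against blood, every list count below is to be read against these shares. They are 34.0% higher and 26.5% lower against blood, and 18.8% and 20.1% against Ly6C-high RM.

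Levels of different genes are compared per length, in deposited TPM. Among the 9 highest in KN-RM were Apoe at 32806 TPM, Cd74 at 12377, C1qb at 5458, H2-Ab1 at 5329.5 and Cd5l at 5292. They encode a lipid carrier, the invariant chain of MHC class II, a chain of complement C1q, a class II chain and the scavenger protein above. The same genes stood at 899.9, 602, 9.49, 141 and 0.0290 TPM in blood monocytes, in that order. Plac8, Chil3 and Fn1 (fibronectin) had 164, 2.36 and 11.2 TPM in KN-RM, against 3753, 2250.5 and 2062 TPM in blood monocytes. The 4 highest genes of blood monocytes were also among the 15 highest of KN-RM: Lyz2, the lysozyme of macrophages and monocytes, at 5307 TPM in KN-RM and 22584 TPM in blood monocytes, and, named after their values were seen, Actb, Tmsb4x and Psap, at 7315, 5736 and 5073 TPM in KN-RM and 8196, 5891 and 5492 TPM in blood monocytes.

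The gate genes went with the labels. Adgre1, which encodes F4/80, had 1512 and 1527 CPM in KN-RM, against 289 and 335 CPM in blood monocytes (log2 2.28, SE 0.21, adjusted p = 3.99e-06). Ly6c2 had 4.25 and 3.81 CPM in KN-RM, against 804 and 917 CPM in blood monocytes, 213-fold lower. Itgam, which encodes CD11b, had 151 and 284 CPM in KN-RM, against 1352 and 1576 CPM in blood monocytes. Both KN-RM libraries were above both blood libraries for Adgre1 and below them for Ly6c2 and Itgam. Timd4, which encodes Tim4, the phosphatidylserine receptor that the KN-RM gate excludes, had 12.6 and 5.48 CPM in KN-RM, against 0 and 0 CPM in blood monocytes, while NASH Kupffer cells averaged 214 and Healthy Kupffer cells 883 CPM. The macrophage genes Cd68 and Csf1r, the receptor of M-CSF, were present in every library and higher in KN-RM, with 5657 and 5273 CPM in KN-RM, against 2215 and 2233 CPM in blood monocytes for Csf1r and a 2.81-fold rise of Cd68.

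The 20 largest rises among genes called in every fit without 1 KN-RM or blood library, with at least 50 CPM in the higher group and outside the lists of other cells, were led by Kupffer cell genes. Cd5l had 9553 and 8008 CPM in KN-RM, against 0 and 0.0814 CPM in blood monocytes. Cd207 (langerin), a C-type lectin, had 535 and 559.9 CPM in KN-RM, against 0 and 0 CPM in blood monocytes, at least 6075-fold higher than 3 counts over both blood libraries. Clec4f had 3316 and 2670.4 CPM in KN-RM, against 0 and 0.163 CPM in blood monocytes, and the complement receptor gene Vsig4 710.2 and 786 CPM in KN-RM, against 0.142 and 0 CPM in blood monocytes. With 1, 2 and 3 counts over both blood libraries, the ratio of KN-RM to blood had a 95% exact binomial interval, which covers counting error only, of 53000 to 11700000 for Cd5l, 14000 to 417000 for Clec4f and 2830 to 40200 for Vsig4. Without a count in either blood library were also Tspan15, a tetraspanin (146 and 134 CPM in KN-RM), Dysf, the membrane repair protein dysferlin (159 and 113), Slco2b1, an organic anion transporter (120.4 and 134), the monocarboxylate transporter family gene Slc16a9 (73.2 and 86.7), the class I-like gene H2-M2 (73.0 and 84.3), the sugar transporter family gene Slc45a3 (75.0 and 59.9), Chp2 (60.9 and 48.9) and Gm10677 (72.0 and 65.3). The lower bounds of their folds ran from 617 for Chp2 to 1565 for Tspan15. Sema6d, a semaphorin, had 523 and 484 CPM in KN-RM, against 0.0474 and 0.0814 CPM in blood monocytes. Dmpk, a serine/threonine kinase, had 1755 and 1376 CPM in KN-RM, against 0.0948 and 0.488 CPM in blood monocytes. The potassium channel gene Kcna2 had 204 and 230.3 CPM in KN-RM, against 0 and 0.0814 CPM in blood monocytes. Vcam1, Cxcl14, Mmp13 and Pdgfc of the same 20 are described with their roles below. Igfbp7, also among the 20, differed between the KN-RM libraries (28.1 and 75.0 CPM, 0 in both blood libraries) and averaged 157 CPM in Ly6C-high RM. Between the KN-RM libraries it moved the same way as the summed stellate cell, hepatocyte and cholangiocyte markers. The part of any of these cells in its level was not tested.

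**Figure D1:**
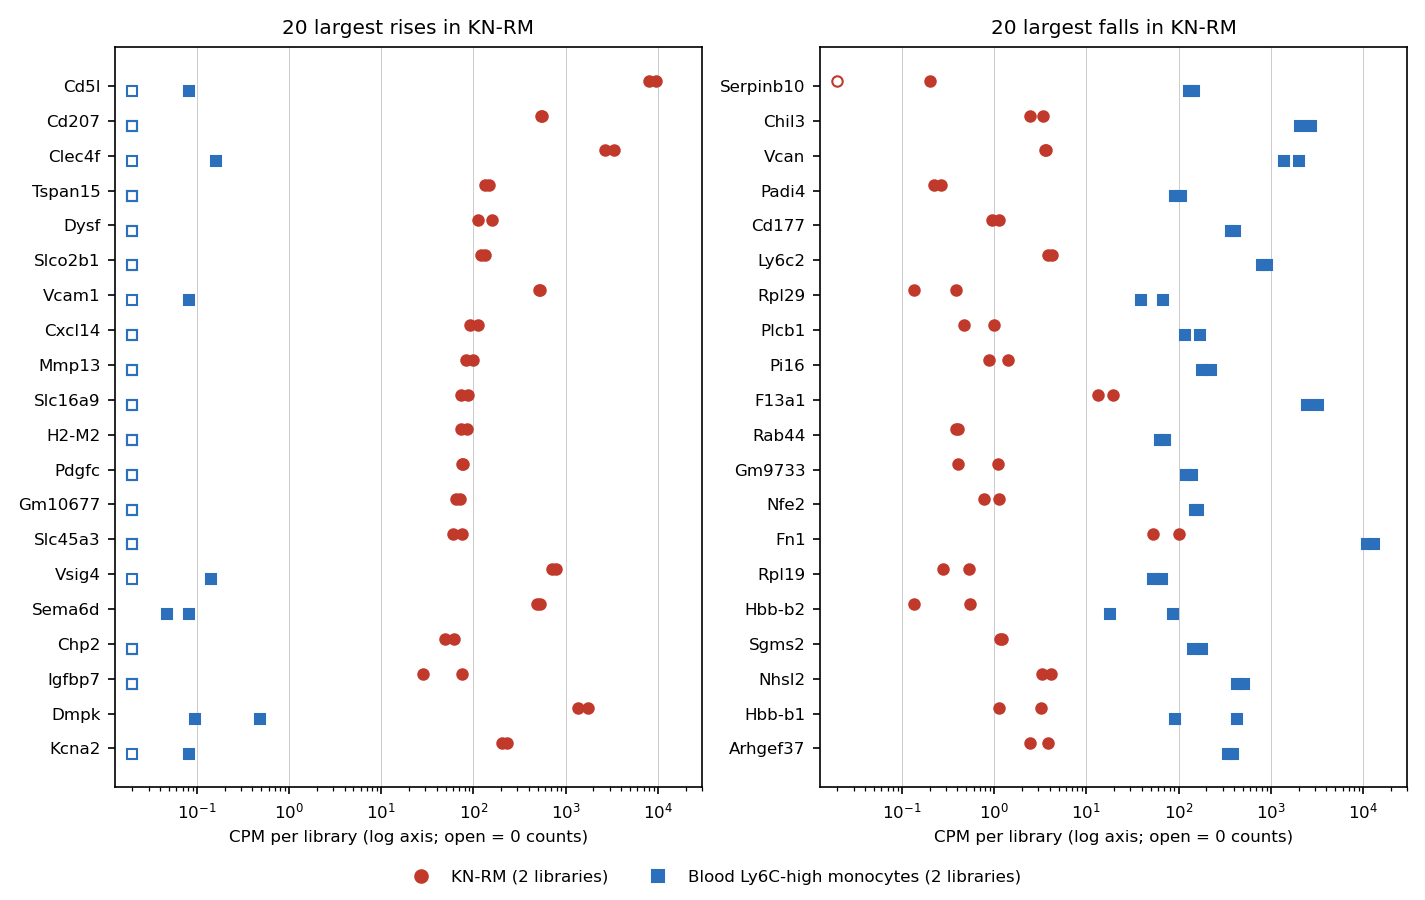
CPM of each library, on log axes, of the 20 largest rises (left) and the 20 largest falls (right) of KN-RM (circles) against blood Ly6C-high monocytes (squares), 2 libraries each, with open symbols for 0 counts. The 40 genes were picked for large changes called in every fit, so the libraries of the 2 groups stand apart by selection. Cd5l has a mean of 8781 CPM in KN-RM and Fn1 of 12001 CPM in blood.

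All 18 genes of the Kupffer cell identity list rose, with a median log2 change of 10.60 (9.14 with genes without a blood count at their lower bound), and 16 of 18 were also higher in KN-RM than in Ly6C-high RM. Adgre1 and Timd4 of this list encode gate proteins of KN-RM, so they are no independent result. Slc40a1, the iron exporter ferroportin, had 1429 and 1647 CPM in KN-RM, against 0.664 and 1.14 CPM in blood monocytes (log2 10.81, SE 0.38, adjusted p = 2.18e-09), and Ly6C-high RM had 36.0 and 61.9 CPM. Folr2, the folate receptor of tissue macrophages, had 625 and 523 CPM in KN-RM, against 0.474 and 0.326 CPM in blood monocytes. Cdh5, a cadherin better known from endothelium, had 585 and 568 CPM in KN-RM, against 0.759 and 0.977 CPM in blood monocytes. Il18bp, the decoy of interleukin-18, rose 230.0-fold, the platelet-activating lectin-like receptor gene Clec1b 422-fold, and Hpgd, which degrades prostaglandins, 7.79-fold. Pcolce2 had 46.4 and 37.3 CPM in KN-RM and 0 in both blood libraries. No KN-RM library overlapped a blood library for these genes.

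The same list was not evenly filled along the path. Clec4f averaged 0.0814 CPM in blood monocytes, 48.9 in Ly6C-high RM, 41.6 in Ly6C-low RM, 2993 in KN-RM, 5596 in NASH Kupffer cells and 8375 in Healthy Kupffer cells. Marco, a scavenger receptor for particles and bacteria, averaged 0, 2.07, 10.5, 15.4, 140.3 and 3095 CPM in the same order. Cd163, the haemoglobin receptor, stood at 6.05, 7.48, 19.6, 18.9, 68.6 and 5407 CPM. C6, a component of the complement attack complex, reached 176 CPM in KN-RM, 549 in NASH Kupffer cells and 1774 in Healthy Kupffer cells. Marco and Cd163 were the 2 list members not called between KN-RM and Ly6C-high RM, with log2 changes of 2.90 (adjusted p = 0.0837) and 1.34 (adjusted p = 0.0613), and both were called, for 18 of 18, with no filter on low counts, with the 2 groups alone and with a replicate block. Against blood, both calls were lost without 1 library. Cd163 had a log2 change of 1.61, and 1.31 without blood replicate 2 (adjusted p = 0.130) and 1.32 without KN-RM replicate 1 (adjusted p = 0.0992). Marco, without a blood count, had an adjusted p of 0.0567 without blood replicate 1. Levels along the path are a description, with no test, and a group with a low level may hold few cells with the RNA or little RNA per cell, which cannot be told apart in bulk libraries.

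**Figure D2:**
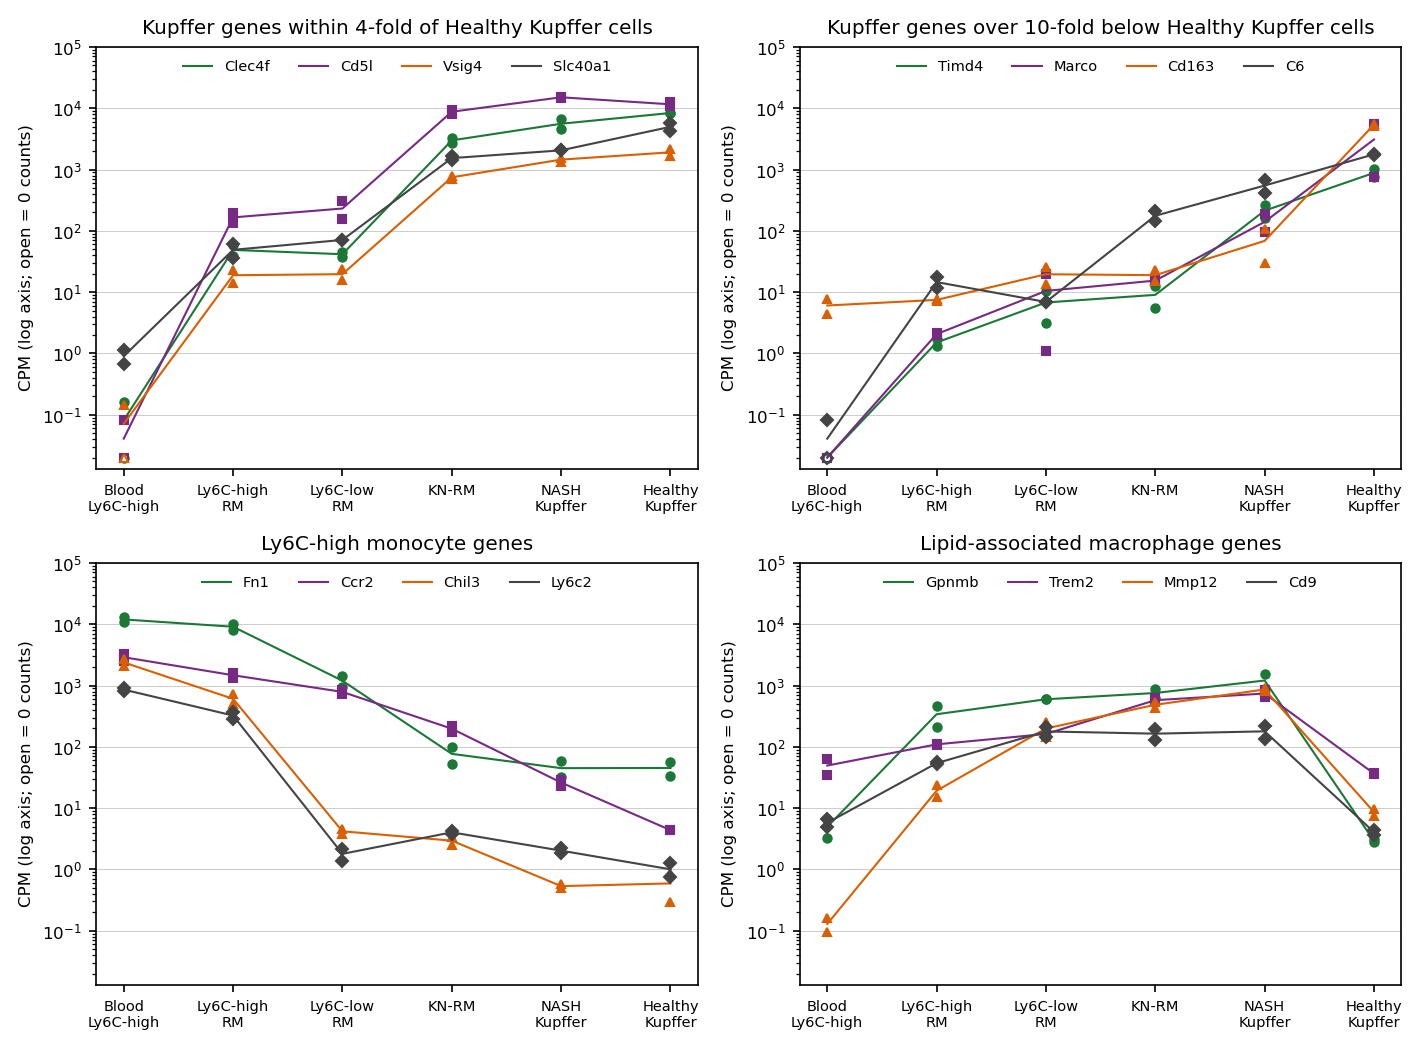
CPM on log axes for 4 sets of genes over 6 groups, from blood monocytes through recruited macrophages and KN-RM to Kupffer cells, with 1 symbol per library, open at 0 counts, and lines through the means of 2 libraries. Clec4f, Cd5l, Vsig4 and Slc40a1 climb to within 4-fold of Healthy Kupffer cells in KN-RM, Timd4, Marco, Cd163 and C6 stay over 10-fold below them, and Gpnmb, Trem2, Mmp12 and Cd9 are low in Healthy Kupffer cells.

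Of 20 transcription factors of macrophages and Kupffer cells, 14 were higher in KN-RM than in blood and 3 lower (median log2 1.42). Against Ly6C-high RM, 11 were higher and 3 lower, and 7 and 3 without Ly6C-high RM replicate 2. Nr1h3, which encodes LXR alpha, had 664 and 519 CPM in KN-RM, against 19.5 and 15.8 CPM in blood monocytes (log2 5.06, SE 0.23, adjusted p = 1.44e-08), and 112 and 103 CPM in Ly6C-high RM. Its partner Rxra, the retinoid X receptor, had 674 and 623 CPM in KN-RM, against 155 and 131 CPM in blood monocytes. Both KN-RM libraries were above both blood libraries for the pair. Maf, a factor that holds the differentiated state of macrophages, rose 9.13-fold. Pparg, a lipid-sensing nuclear receptor, rose 7.74-fold and Mitf, a factor of lysosomal genes, 2.38-fold. Spic, the factor of iron-recycling macrophages, had 30.5 and 21.4 CPM in KN-RM, against 3.56 and 4.64 CPM in blood monocytes, below the 127 CPM mean of Healthy Kupffer cells. Id3, an inhibitor of basic helix-loop-helix factors that Kupffer cells need, had 284 and 162 CPM in KN-RM, against 11.8 and 0.570 CPM in blood monocytes, so its fold rests on unequal blood libraries. Id3 had a log2 change of 5.05, and 8.59 without blood replicate 1 and 4.24 without blood replicate 2. Irf8, a factor of monocytes and macrophages alike, had 431 and 399.9 CPM in KN-RM, against 427 and 413 CPM in blood monocytes and was not called (adjusted p = 0.936).

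Monocyte and myeloid progenitor factors went the other way, with 9 of 12 lower and 1 higher (median log2 -1.52). Nfe2, a factor of the erythroid and megakaryocyte lines that blood monocytes also carry, had 0.772 and 1.14 CPM in KN-RM, against 163 and 149.9 CPM in blood monocytes (log2 -7.37, SE 0.24). Klf4, a factor of monocyte differentiation, had 17.8 and 11.9 CPM in KN-RM, against 300.4 and 286 CPM in blood monocytes (log2 -4.30, SE 0.42). Nr4a1, needed for Ly6C-low monocytes, fell 6.36-fold and Cebpd 4.23-fold. Klf2 had 116 and 53.7 CPM in KN-RM, against 588 and 610.4 CPM in blood monocytes. Klf2 had a log2 change of -2.82, and -3.45 without KN-RM replicate 1. The 1 that rose was Myc, a growth factor-induced factor, with 78.4 and 38.6 CPM in KN-RM, against 4.60 and 2.36 CPM in blood monocytes. Myc had a log2 change of 4.02, and 4.63 without blood replicate 1. Gfi1 and Myb were under 3 CPM in both groups and not called.

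The genes of niche signalling moved unevenly. In the Notch pathway 5 of 12 were higher and 6 lower, and 4 and 4 without KN-RM replicate 1, KN-RM replicate 2 or blood replicate 2. The receptor gene Notch2 had 303 and 272 CPM in KN-RM, against 1079 and 1317 CPM in blood monocytes (4.17-fold lower), and the DNA-binding mediator Rbpj had 21.6 and 25.1 CPM in KN-RM, against 54.3 and 66.2 CPM in blood monocytes (2.58-fold lower). Hey1, a target gene of Notch, had 54.7 and 48.9 CPM in KN-RM, against 0 and 0.244 CPM in blood monocytes, and Dtx4, an E3 ligase of the pathway, 132 and 143 CPM in KN-RM, against 23.7 and 29.4 CPM in blood monocytes. The receptor and its mediator were thus lower while these 2 genes were higher, each with no overlap between the groups, as for most genes tested. Hes1, the other classic target, was not called against blood (39.3 and 14.5 CPM in KN-RM, 10.8 and 13.6 CPM in blood; adjusted p = 0.0931).

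In the TGF-beta and BMP pathway 12 of 18 genes were higher and 4 lower (median log2 1.02), with 2 lower without KN-RM replicate 1, KN-RM replicate 2 or blood replicate 2. The receptor gene Tgfbr1 had 529 and 604 CPM in KN-RM, against 129.9 and 153 CPM in blood monocytes, and the receptor gene Acvrl1 195 and 185 CPM in KN-RM, against 49.1 and 40.9 CPM in blood monocytes. The inhibitor Smad7 rose 4.46-fold and the target gene Id2 2.58-fold, while the mediator Smad3 fell 2.11-fold. The common mediator Smad4, one of the 3 factors that fell in the macrophage list, fell 2.06-fold. Of 18 cytokine and growth factor receptors 12 were lower and 3 higher (median log2 -0.65). Il17ra, the receptor of interleukin-17, had 189 and 187 CPM in KN-RM, against 988 and 992 CPM in blood monocytes. Csf3r, the receptor of G-CSF, had 127 and 130.3 CPM in KN-RM, against 469 and 588 CPM in blood monocytes, and Tnfrsf1b, a receptor of TNF, 490.4 and 501 CPM in KN-RM, against 1542 and 1733 CPM in blood monocytes. Il6ra fell 2.42-fold, Ifngr1 2.15-fold and Flt3 11.8-fold. Csf1r was 1 of the 3 that rose.

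Of the 17 tested Ly6C-high monocyte genes 16 fell (median log2 -5.16), against 26.5% of all genes tested, and all 17 were lower than in Ly6C-high RM. Among them, Ly6c2 belongs to the gates of blood monocytes and Ly6C-high RM and Itgam to that of Ly6C-high RM, so these are no independent result. Chil3, a chitinase-like protein, had 3.42 and 2.47 CPM in KN-RM, against 2054 and 2717 CPM in blood monocytes (log2 -9.64, SE 0.33, adjusted p = 2.01e-09). Vcan, the matrix proteoglycan versican, had 3.59 and 3.68 CPM in KN-RM, against 1381 and 1999 CPM in blood monocytes. F13a1 had 13.3 and 19.5 CPM in KN-RM, against 2498 and 3272 CPM in blood monocytes, and Fn1 52.6 and 101 CPM in KN-RM, against 10972 and 13030.0 CPM in blood monocytes. Both KN-RM libraries were below both blood libraries for each, and the smallest of these 4 falls was that of Fn1, at 156-fold. Plac8 fell 19.4-fold, S100a4, a calcium-binding protein, 69.2-fold, and Ifitm6 26.6-fold. Thbs1, which encodes thrombospondin-1, was not called (37.8 and 38.2 CPM in KN-RM, 43.6 and 119.6 CPM in blood; adjusted p = 0.113), and averaged 270.1 CPM in Ly6C-high RM. Chil3 averaged 2385 CPM in blood, 608 in Ly6C-high RM, 4.19 in Ly6C-low RM and 2.95 in KN-RM, while Fn1 averaged 12001, 9119.9, 1199.8 and 76.9 CPM. Between Ly6C-high and Ly6C-low RM lay the larger step for Chil3, and for Fn1 the step between Ly6C-low RM and KN-RM was larger than the ones before it.

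Most of the 20 largest falls lay outside that list. Cd177, a surface protein of neutrophils, had 0.938 and 1.14 CPM in KN-RM, against 373 and 413 CPM in blood monocytes, and Padi4, which citrullinates histones, 0.221 and 0.268 CPM in KN-RM, against 106 and 91.5 CPM in blood monocytes. Serpinb10, a protease inhibitor, had 0 and 0.201 CPM in KN-RM, against 146 and 131 CPM in blood monocytes, with 3 counts over both KN-RM libraries. Pi16, a peptidase inhibitor family gene, had 0.883 and 1.40 CPM in KN-RM, against 225 and 178 CPM in blood monocytes, Rab44 0.386 and 0.401 CPM in KN-RM, against 70.8 and 62.7 CPM in blood monocytes, and Sgms2, a sphingomyelin synthase, 1.16 and 1.20 CPM in KN-RM, against 179 and 145 CPM in blood monocytes. Nhsl2 and Arhgef37, a guanine nucleotide exchange factor gene, fell 128-fold and 114-fold. Plcb1, a phospholipase C, had 0.993 and 0.468 CPM in KN-RM, against 118 and 172 CPM in blood monocytes, and Gm9733 1.10 and 0.401 CPM in KN-RM, against 121 and 141 CPM in blood monocytes. Plcb1 had a log2 change of -7.58, and -8.22 without KN-RM replicate 1. Gm9733 had a log2 change of -7.38, and -8.29 without KN-RM replicate 1. Of the neutrophil markers 4 of 12 rose and 4 fell (2 rose without KN-RM replicate 1 or blood replicate 1), S100a8 had 2.70 and 3.48 CPM in KN-RM, against 13.4 and 10.7 CPM in blood monocytes, and their summed level was 52.0 and 29.7 CPM in KN-RM and 254 and 342 CPM in blood, of which Mmp8, a collagenase, made 5.96 and 5.82 CPM in KN-RM and 181 and 274 CPM in blood. In the main fit 33.3% of the neutrophil markers tested rose and 33.3% fell, against 34.0% and 26.5% of all genes tested. The part of granulocytes in the falls given here was not tested.

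Ly6C-low monocyte genes were mixed, with 4 of 11 higher and 5 lower. That was 36.4% higher and 45.5% lower, against 34.0% and 26.5% of all genes tested. Ace, the angiotensin-converting enzyme, had 15.0 and 16.9 CPM in KN-RM, against 746 and 789 CPM in blood monocytes, and Spn 35.2 and 30.6 CPM in KN-RM, against 320.1 and 241 CPM in blood monocytes, while Cd36, the fatty acid and lipoprotein receptor, had 435 and 582 CPM in KN-RM, against 8.20 and 16.4 CPM in blood monocytes and Cd300e 74.1 and 39.1 CPM in KN-RM, against 3.27 and 5.53 CPM in blood monocytes. Itgal, which encodes CD11a, had 1499 and 1568 CPM in KN-RM, against 1437 and 1358 CPM in blood monocytes and was not called (adjusted p = 0.515).

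Homing genes changed in both directions. Of 14 chemokine receptors 8 were higher and 3 lower. Ccr2 had 173 and 223 CPM in KN-RM, against 2521 and 3285 CPM in blood monocytes (log2 -3.88, SE 0.20, adjusted p = 4.73e-08), Ly6C-high RM had 1336 and 1614 CPM, and the Kupffer cells averaged 26.1 (NASH) and 4.38 CPM (Healthy). Ccr2 was thus lower in KN-RM than in blood, and the KN-RM mean lay above the means of both Kupffer groups. Cx3cr1, the fractalkine receptor, had 663 and 777 CPM in KN-RM, against 745 and 879 CPM in blood monocytes, which overlapped and was not called (adjusted p = 0.543), with 282 and 5.74 CPM in NASH and Healthy Kupffer cells. Cmklr1, the chemerin receptor, rose 4.58-fold.

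Of 24 adhesion and homing molecules 10 were higher and 10 lower. That was 41.7% each way, against 34.0% higher and 26.5% lower over all genes tested. Vcam1, the ligand of the integrin VLA-4, had 525 and 519 CPM in KN-RM, against 0 and 0.0814 CPM in blood monocytes, while Itga4, a chain of VLA-4, had 216 and 249.8 CPM in KN-RM, against 1416 and 2143 CPM in blood monocytes. Itgb7, another integrin chain, had 38.1 and 40.5 CPM in KN-RM, against 695 and 492 CPM in blood monocytes. S1pr5, a receptor of sphingosine-1-phosphate, had 0.883 and 0.468 CPM in KN-RM, against 49.0 and 51.0 CPM in blood monocytes. Itga9 had 596 and 621 CPM in KN-RM, against 1.33 and 1.06 CPM in blood monocytes, Itgb5 1039.5 and 1184 CPM in KN-RM, against 107 and 94.3 CPM in blood monocytes, and Itgax, which encodes CD11c, rose 15.6-fold. Itgax averaged 34.6 CPM in blood, 321 in Ly6C-high RM, 1754 in Ly6C-low RM, 540.1 in KN-RM, 402 in NASH Kupffer cells and 9.73 in Healthy Kupffer cells, with its highest mean in Ly6C-low RM.

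Of 20 chemokine ligands 15 were higher and 2 lower (median log2 5.11, or 4.41 at the bounds). Cxcl16, a membrane-bound chemokine, had 471 and 471 CPM in KN-RM, against 8.63 and 4.64 CPM in blood monocytes, and Cxcl14 91.1 and 113 CPM in KN-RM with 0 in both blood libraries, at least 1124-fold higher. Ccl24 had 67.0 and 74.6 CPM in KN-RM, against 0.332 and 0.0814 CPM in blood monocytes. Ccl3 rose 13.9-fold and Ccl5 16.5-fold, while Ccl9 and Ccl6 fell 4.21-fold and 2.17-fold. Cxcl10 was not called (27.7 and 13.1 CPM in KN-RM, 11.7 and 8.22 CPM in blood; adjusted p = 0.107).

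Of 19 tested growth and repair factors 15 were higher and 2 lower (median log2 5.02, or 3.77 at the bounds). Igf1, insulin-like growth factor 1, had 367 and 439 CPM in KN-RM, against 0.190 and 0.326 CPM in blood monocytes (log2 10.66, SE 0.28), and 41.3 and 41.9 CPM in Ly6C-high RM. Pdgfc had 75.1 and 77.0 CPM in KN-RM and Hbegf, an EGF receptor ligand, 18.9 and 15.0 CPM, with 0 in both blood libraries for each. Pdgfb rose 12.9-fold. Among proteases, Mmp12, the macrophage elastase, had 432 and 541 CPM in KN-RM, against 0.0948 and 0.163 CPM in blood monocytes, Mmp13, a collagenase without a count in blood, was at least 1018-fold higher, and Mmp14, which is bound to the membrane, rose 32.5-fold. Mmp8 and Mmp19 were the 2 that fell.

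Inflammatory cytokines and NF-kB genes did not move one way: 7 of 20 were higher and 6 lower, and 6 and 7 in limma on log2(TPM + 1), with 3 lower without KN-RM replicate 2. Il1a had 50.0 and 41.6 CPM in KN-RM, against 0.332 and 0.651 CPM in blood monocytes, and Il1rn, the antagonist of interleukin-1, 134 and 149.8 CPM in KN-RM, against 19.1 and 18.8 CPM in blood monocytes. Il1b rose 4.10-fold and Il18 2.24-fold. Socs3, a feedback inhibitor of cytokine signalling, had 10.9 and 10.2 CPM in KN-RM, against 163 and 155 CPM in blood monocytes, and the inflammatory caspase gene Casp1 fell 2.18-fold. Tnf had 16.7 and 8.16 CPM in KN-RM, against 9.20 and 5.53 CPM in blood monocytes and was not called (adjusted p = 0.204), and the same held for Nfkbia, the inhibitor of NF-kB, and Nlrp3, the inflammasome sensor.

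Of 16 LXR target genes 13 were higher and 2 lower (median log2 1.53), with 0 lower without blood replicate 2, and 10 were higher and 0 lower than in Ly6C-high RM. Abca1, the exporter of cholesterol to apolipoproteins, had 1072 and 1204 CPM in KN-RM, against 54.8 and 83.1 CPM in blood monocytes (log2 4.05, SE 0.20, adjusted p = 2.83e-08), and Abcg1, its partner, 933 and 890.3 CPM in KN-RM, against 319 and 335 CPM in blood monocytes. Apoe had 31847 and 36136 CPM in KN-RM, against 615 and 968 CPM in blood monocytes, and 4106 and 4253 CPM in Ly6C-high RM. Pltp, the phospholipid transfer protein, rose 34.0-fold, Scd1, a fatty acid desaturase, 120.0-fold (with a mean of 439 CPM in KN-RM and 728 CPM in Ly6C-high RM), and Fasn, the fatty acid synthase, 3.76-fold. Arl4c, a small GTPase, was not called (189 and 182 CPM in KN-RM, 194 and 178 CPM in blood). Of 21 cholesterol synthesis genes 7 were higher and 2 lower, against 34.0% higher and 26.5% lower over all genes tested, and 12 were not called. Dhcr7, a late step, rose 3.56-fold and Fdft1, the squalene synthase, 2.76-fold.

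Of 20 lipid-associated macrophage genes 16 were higher and 0 lower (median log2 3.96), and 14 were higher and 1 lower than in Ly6C-high RM. Gpnmb, a transmembrane glycoprotein of lipid-loaded macrophages, had 636 and 877 CPM in KN-RM, against 6.64 and 3.26 CPM in blood monocytes. Gpnmb had a log2 change of 7.20, and 7.86 without blood replicate 1. Trem2, a lipid-binding receptor, had 537 and 619 CPM in KN-RM, against 63.9 and 35.2 CPM in blood monocytes. Of the tetraspanin genes, Cd9 had 131 and 198 CPM in KN-RM, against 6.64 and 4.88 CPM in blood monocytes, and Cd63 62.0 and 74.2 CPM in KN-RM, against 0.142 and 0.163 CPM in blood monocytes. Lpl, lipoprotein lipase, rose 23.7-fold, and Lipa, the acid lipase that frees cholesterol in lysosomes, 3.28-fold. For each, the KN-RM libraries lay above the blood libraries. Spp1, osteopontin, had 88.8 and 219 CPM in KN-RM, against 1.09 and 0.244 CPM in blood monocytes, but Ly6C-high RM averaged 292 CPM, and Spp1 is also listed as a cholangiocyte marker. Spp1 had a log2 change of 7.65, and 9.26 without blood replicate 1 and 6.86 without KN-RM replicate 2. Lgals3 (galectin-3) and Fabp5 were among the 4 not called. In Healthy Kupffer cells Gpnmb averaged 2.93 CPM, Cd63 0.821, Cd9 4.07 and Mmp12 8.64, and in NASH Kupffer cells 1209, 83.6, 179 and 863 CPM in the same order. The KN-RM means of 757, 68.1, 164 and 486 CPM lay between those of the Kupffer groups.

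Fatty acid genes split, with 7 of 22 higher and 8 lower, and 4 and 9 in limma on log2(TPM + 1), and 4 to 6 higher and 4 to 6 lower when 1 KN-RM or blood library was left out. In the main fit 31.8% of these genes were higher and 36.4% lower, against 34.0% and 26.5% of all genes tested. Fabp7, a fatty acid binding protein, had 175 and 160.3 CPM in KN-RM, against 1.14 and 2.12 CPM in blood monocytes, whereas Cpt1a, which admits fatty acids to mitochondria, had 285 and 253 CPM in KN-RM, against 465 and 590.4 CPM in blood monocytes, and Acsl1 fell 2.04-fold. Of 16 lipid mediator genes 9 were higher and 6 lower. Ptgs1, the constitutive cyclooxygenase, had 790.3 and 787 CPM in KN-RM, against 8.06 and 12.1 CPM in blood monocytes, Hpgds, a prostaglandin D synthase, 143 and 161 CPM in KN-RM, against 0.379 and 0.488 CPM in blood monocytes, and Tbxas1, the thromboxane synthase, rose 6.28-fold. Of the pair that starts leukotriene synthesis, Alox5ap had 152 and 112 CPM in KN-RM, against 794 and 828 CPM in blood monocytes, and Alox5 1.16 and 1.74 CPM in KN-RM, against 17.0 and 11.2 CPM in blood monocytes. Ltc4s, the leukotriene C4 synthase, rose 31.5-fold.

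Of 25 lysosome genes 21 were higher and 0 lower (median log2 1.01), and 18 were higher and 0 lower than in Ly6C-high RM (11 and 2 in limma on log2(TPM + 1)). The protease gene Ctsb had 10565 and 10559 CPM in KN-RM, against 1474 and 1704 CPM in blood monocytes, the protease gene Ctsd 5982 and 5932 CPM in KN-RM, against 364 and 399.5 CPM in blood monocytes, and Lgmn, which encodes legumain, 3791 and 3427 CPM in KN-RM, against 161 and 178 CPM in blood monocytes (log2 4.41, SE 0.18). Gaa, the acid glucosidase, rose 3.51-fold, and Npc1, which exports cholesterol from the lysosome, 1.71-fold. Lamp2 and Atp6v0d1, a subunit of the proton pump, were not called.

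Of 17 tested scavenger receptors 14 were higher and 2 lower. Mrc1, the mannose receptor CD206, had 1016 and 1020.0 CPM in KN-RM, against 9.20 and 14.6 CPM in blood monocytes, and Stab1, a clearance receptor, 1093 and 1148 CPM in KN-RM, against 8.68 and 10.3 CPM in blood monocytes. Stab2 had 361 and 299 CPM in KN-RM and 0 in both blood libraries, and averaged 184 CPM in Ly6C-high RM and 740.2 in Healthy Kupffer cells. It is also an endothelial marker. Olr1, the receptor of oxidised LDL, fell 9.30-fold, and Scarb1, the receptor of HDL, was not called. For uptake of dying cells, Mertk had 689 and 716 CPM in KN-RM, against 1.37 and 2.28 CPM in blood monocytes (log2 8.65, SE 0.28) and Axl, a kinase of the same family, 2664 and 2705 CPM in KN-RM, against 105 and 129 CPM in blood monocytes, and 9 of 17 tested members of that list were higher and 4 lower. Itgb3, an integrin chain, had 4.30 and 3.95 CPM in KN-RM, against 22.9 and 32.6 CPM in blood monocytes, and Mfge8, a bridging ligand, was not called (11.5 and 20.7 CPM in KN-RM, 19.2 and 14.5 CPM in blood).

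Complement genes rose in 13 of 19 and fell in 4. The C1q genes moved together: C1qa had 2494 and 2625 CPM in KN-RM, against 1.71 and 1.22 CPM in blood monocytes, C1qb 5089.5 and 4347 CPM in KN-RM, against 8.25 and 5.70 CPM in blood monocytes, and C1qc 3504 and 3327 CPM in KN-RM, against 3.08 and 1.87 CPM in blood monocytes. C1qa averaged 1.46, 139, 619.8, 2559.5, 2740.4 and 2801 CPM from blood to Healthy Kupffer cells along the path. C3ar1, the C3a receptor, rose 49.9-fold and Cfp, properdin, 5.26-fold. C3 itself, the central component, had 218 and 194 CPM in KN-RM, against 1792 and 1806 CPM in blood monocytes and fell 8.74-fold.

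Haem and iron genes were all called, 16 of 18 higher and 2 lower (median log2 1.80). Besides Slc40a1, Hmox1, haem oxygenase-1, had 603 and 596 CPM in KN-RM, against 109 and 132 CPM in blood monocytes, Blvrb, a biliverdin reductase, 239 and 209.9 CPM in KN-RM, against 18.0 and 14.8 CPM in blood monocytes, and Tfrc, the transferrin receptor, 73.4 and 38.5 CPM in KN-RM, against 3.60 and 4.72 CPM in blood monocytes. Slc11a1, the iron transporter of phagosomes, rose 3.37-fold and Ncoa4, the receptor for ferritin turnover, 3.61-fold. Hmox1 was lower in KN-RM than the 3163 CPM mean of Healthy Kupffer cells. Hpx and Cp, 2 of the 16, are hepatocyte products, and both averaged more in Ly6C-high RM (156 and 78.2 CPM) than in KN-RM (16.5 and 15.1 CPM).

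Of 12 MHC class II genes 11 were higher and 0 lower (median log2 2.49) and 7 were higher and 0 lower than in Ly6C-high RM. H2-Ab1 had 4838 and 5491 CPM in KN-RM, against 145 and 86.3 CPM in blood monocytes (log2 5.47, SE 0.35, adjusted p = 1.86e-07), H2-Eb1 4172 and 4930.3 CPM in KN-RM, against 75.9 and 58.1 CPM in blood monocytes, and Ciita, the master activator of the class II genes, 319 and 329 CPM in KN-RM, against 79.2 and 42.0 CPM in blood monocytes. Cd86, a co-stimulator, rose 6.25-fold. Along the path the summed list held 1444 and 1028 CPM in blood, 12013 and 12761 in Ly6C-high RM, 39707 and 40719.5 in Ly6C-low RM, 27700.1 and 31714 in KN-RM, 17283 and 27464 in NASH Kupffer cells and 7376 and 9622 CPM in Healthy Kupffer cells, and was highest in Ly6C-low RM.

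Pattern recognition and Fc receptors split evenly, 10 of 24 higher and 9 lower, and 9 and 10 in limma on log2(TPM + 1). That was 41.7% higher and 37.5% lower in the main fit, against 34.0% and 26.5% of all genes tested. Clec4n (dectin-2) had 105 and 126 CPM in KN-RM, against 4.93 and 7.73 CPM in blood monocytes, Tlr3 rose 4.46-fold, Cd14 4.34-fold and Fcgrt, the neonatal Fc receptor, 5.21-fold. Tlr5, the flagellin receptor, had 0.221 and 0.468 CPM in KN-RM, against 25.6 and 20.3 CPM in blood monocytes, and Clec4e (Mincle) 2.70 and 2.74 CPM in KN-RM, against 58.8 and 69.4 CPM in blood monocytes. Tlr13 and Tlr9, sensors of bacterial RNA and DNA, fell 3.21-fold and 2.44-fold.

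Interferon response genes were lower in 9 of 22 and higher in 4 (median log2 -0.41), but the counts rest on single libraries: 4 were lower and 4 higher without KN-RM replicate 2, 4 and 5 without blood replicate 2, 8 and 2 without KN-RM replicate 1, and 9 and 2 without blood replicate 1. Zbp1, a nucleic acid sensor, had 85.1 and 65.6 CPM in KN-RM, against 194 and 225 CPM in blood monocytes, and Irf9 108 and 82.1 CPM in KN-RM, against 197 and 211 CPM in blood monocytes, while Ifi44 had 47.9 and 39.9 CPM in KN-RM, against 1.52 and 4.23 CPM in blood monocytes. Ifi44 had a log2 change of 4.02, and 3.38 without blood replicate 1 and 4.84 without blood replicate 2. Isg15, Rsad2 and Oas2 were not called.

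In the redox list 9 of 20 were higher and 5 lower, and 5 and 5 in limma on log2(TPM + 1). The main fit thus gave 45.0% higher and 25.0% lower, against 34.0% and 26.5% of all genes tested. Gpx3, a glutathione peroxidase, had 189 and 189 CPM in KN-RM, against 15.4 and 24.0 CPM in blood monocytes, and Txnrd1, thioredoxin reductase, rose 4.51-fold. Gsr, glutathione reductase, which was listed with the monocyte genes, had 99.9 and 111 CPM in KN-RM, against 1159 and 1336 CPM in blood monocytes. The oxidase gene Cybb fell 1.89-fold. Of 21 glycolysis genes 10 were lower and 5 higher (median log2 -0.25). Hk3, a hexokinase, had 458 and 406 CPM in KN-RM, against 129 and 114 CPM in blood monocytes, while Slc2a6, a sugar transporter, had 28.9 and 23.9 CPM in KN-RM, against 189 and 156 CPM in blood monocytes, Slc16a3, the lactate exporter, fell 4.04-fold and Eno1, enolase, 3.41-fold. Of 30 oxidative phosphorylation genes 26.7% were higher and 23.3% lower in the main fit, against 34.0% and 26.5% of all genes tested. Oxidative phosphorylation genes stayed near the median of all genes (-0.03 against 0.095), with 8 of 30 higher and 7 lower, but 2 and 7 without blood replicate 2, 11 and 3 without blood replicate 1, 3 and 1 without KN-RM replicate 1, and 4 and 4 without KN-RM replicate 2.

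All 22 cell cycle genes were higher in KN-RM than in blood (median log2 3.22) and than in Ly6C-high RM (median log2 2.29). Top2a, topoisomerase II of dividing cells, had 90.8 and 90.3 CPM in KN-RM, against 1.28 and 2.36 CPM in blood monocytes (log2 5.71, SE 0.27, adjusted p = 2.16e-08). Mki67, the Ki-67 antigen, had 142 and 142 CPM in KN-RM, against 35.4 and 43.3 CPM in blood monocytes, Foxm1, a mitotic transcription factor, 33.4 and 31.3 CPM in KN-RM, against 1.33 and 1.55 CPM in blood monocytes, and Mcm5, a replication helicase subunit, 71.4 and 80.6 CPM in KN-RM, against 15.9 and 9.52 CPM in blood monocytes. Ccnd1, cyclin D1, rose 31.9-fold. No library of blood reached a KN-RM library for these 5. Along the path the summed list held 204 and 194 CPM in blood, 284 and 277 in Ly6C-high RM, 1245 and 1086 in Ly6C-low RM, 1054 and 1054 in KN-RM, 852 and 933 in NASH Kupffer cells and 677 and 588 CPM in Healthy Kupffer cells. The libraries of Ly6C-low RM were thus above those of KN-RM, and those of Ly6C-high RM and blood were the lowest.

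**Figure D3:**
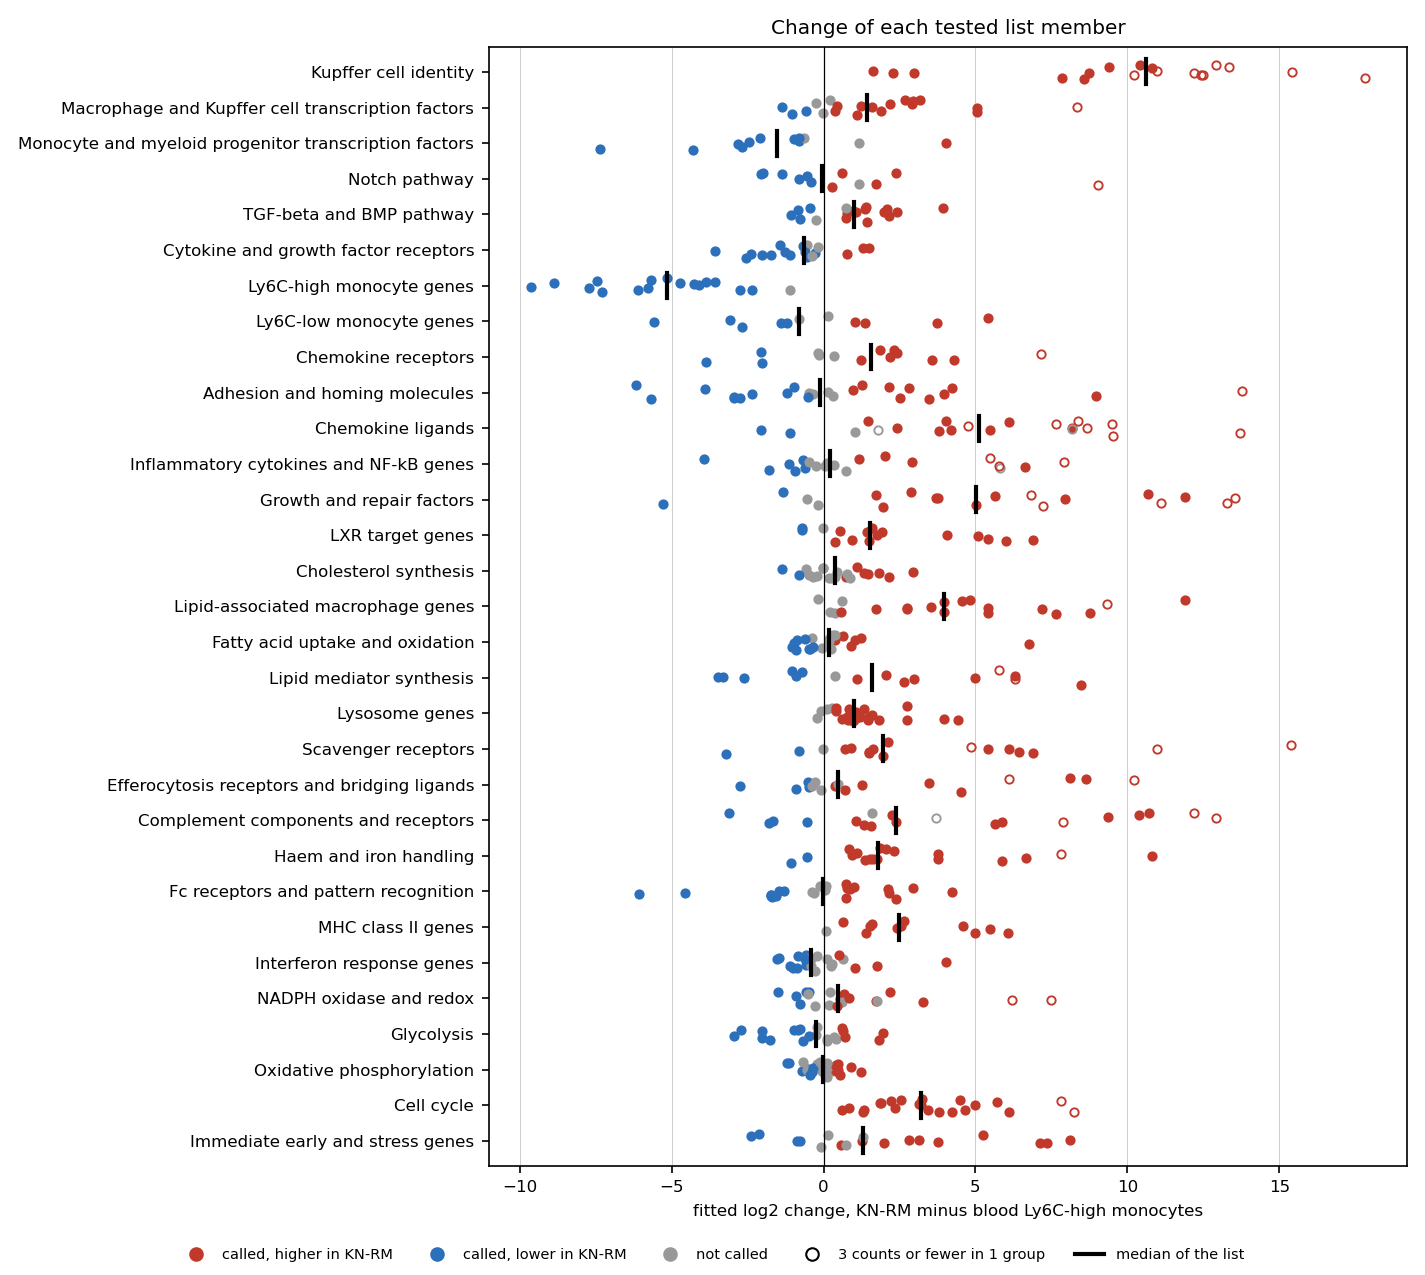
Fitted log2 change of each tested member of 31 lists, KN-RM minus blood Ly6C-high monocytes, with 1 point per gene coloured by call, open where 1 group held 3 counts or fewer, and a bar at the median. Points of the Kupffer, lysosome and cell cycle lists lie right of 0 where called, those of the Ly6C-high monocyte list left of 0, and the oxidative phosphorylation and Notch lists straddle it.

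Immediate early and stress genes, which respond to cell handling, were higher in 10 of 18 and lower in 4, with 2 lower without KN-RM replicate 2. Hspa1a, a heat shock gene, had 460.5 and 57.9 CPM in KN-RM, against 1.37 and 1.87 CPM in blood monocytes and 410.2 and 53.9 CPM in Ly6C-high RM, and Egr1, an early response factor, had 111 and 72.3 CPM in KN-RM, against 4.27 and 9.77 CPM in blood monocytes and 89.8 and 83.6 CPM in Ly6C-high RM. Hspa1a had a log2 change of 7.36, and 5.22 without KN-RM replicate 1 and 8.19 without KN-RM replicate 2. Egr1 had a log2 change of 3.77, and 4.42 without blood replicate 2. The summed list held 2908 and 1271 CPM in KN-RM, 2605 and 1286 CPM in Ly6C-high RM and 1363 and 1652 CPM in blood. Against Ly6C-high RM, prepared in the same way, 3 of the 18 were higher and 0 lower, and 1 without Ly6C-high RM replicate 2. Btg2 and Ier2 fell 5.22-fold and 4.32-fold against blood.

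Markers of other liver cells were also higher in KN-RM than in blood. All 16 hepatocyte markers were higher, with a summed level of 119 and 517 CPM in KN-RM, 1873 and 5204 CPM in Ly6C-high RM and 1.14 and 1.38 CPM in blood, where 13 of the 16 were at 0. Of 15 endothelial markers 14 were higher and 1 lower (688 and 688 CPM in KN-RM, 1765 and 1871 CPM in Ly6C-high RM and 240.5 and 335 CPM in blood, with 7 at 0 in blood), and of 14 stellate cell markers 13 and 1 (367 and 748 CPM in KN-RM, 973 and 1062 CPM in Ly6C-high RM and 81.8 and 90.5 CPM in blood, with 8 at 0 in blood). KN-RM replicate 2 held more hepatocyte and stellate RNA than replicate 1. T and NK markers summed to 97.8 and 107 CPM in KN-RM and 5.97 and 11.3 CPM in blood (11 of 13 higher), and B cell markers to 107 and 77.2 CPM in KN-RM and 24.3 and 26.4 CPM in blood (7 of 9 higher). Dendritic cell markers were mixed (7 of 12 higher and 4 lower, and 4 and 4 without blood replicate 1), as were cholangiocyte markers (5 of 7 higher and 2 lower, and 2 and 2 in limma on log2(TPM + 1)). Erythroid and platelet markers summed to 70.6 and 77.5 CPM in KN-RM and 258 and 1132 CPM in blood, with unequal blood libraries and with Pf4, a platelet factor also made by macrophages, as most of the KN-RM sum (60.5 and 72.7 CPM). Against Ly6C-high RM all 16 hepatocyte markers and 14 of 15 endothelial markers were lower in KN-RM (9 of the 16 without Ly6C-high RM replicate 2), while 0 of 13 T and NK markers were called and 1 of 9 B cell markers was higher. The part of such RNA in the differences given above was not tested. Without the genes of these lists, an alternative chosen after seeing the data, 8620 genes were called against blood and 5582 against Ly6C-high RM.

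**Figure D4:**
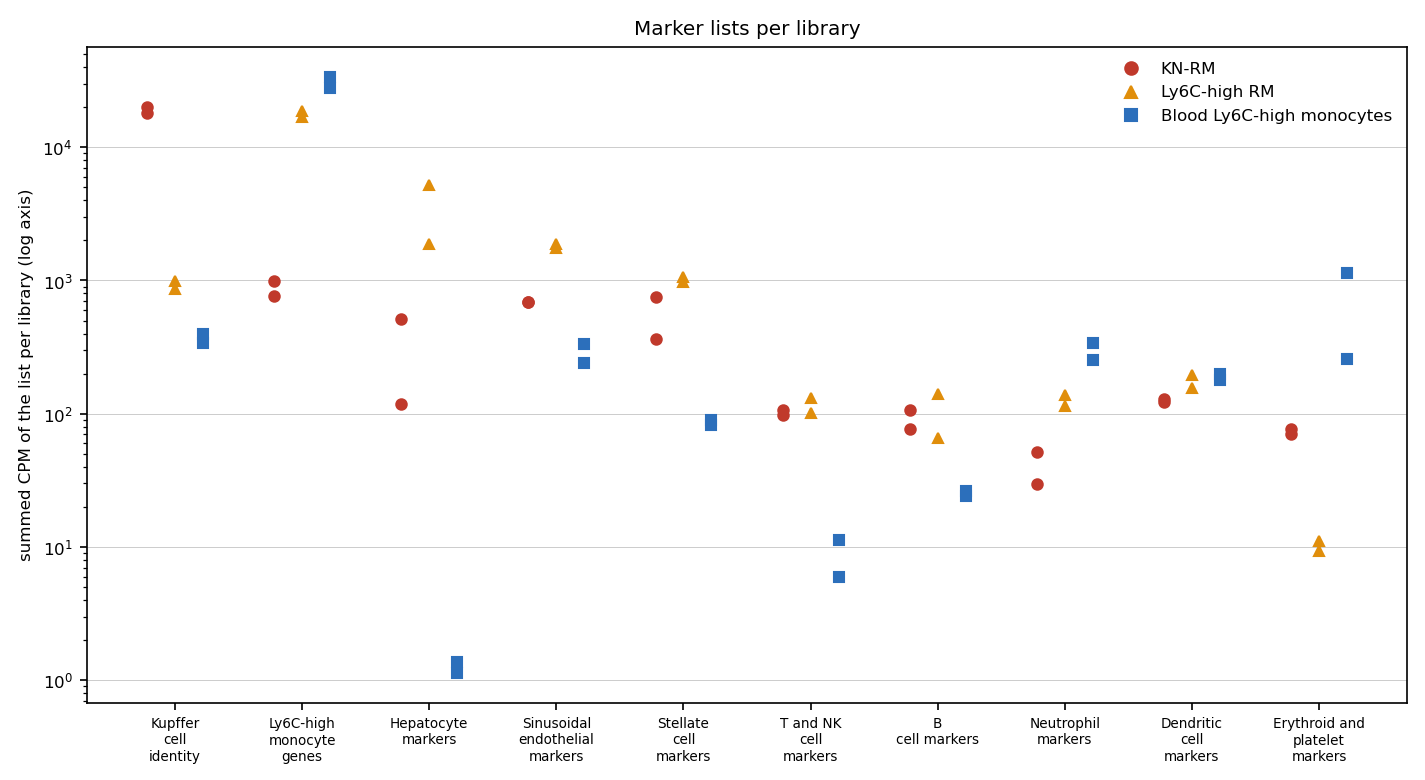
Summed CPM, on a log axis, of 10 marker lists in each library of KN-RM (circles), Ly6C-high RM (triangles) and blood Ly6C-high monocytes (squares). Kupffer genes are highest in KN-RM and monocyte genes in blood, and hepatocyte markers range from 1.14 CPM in a blood library to 5204 CPM in a Ly6C-high RM library.

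Ribosomal protein genes fell in 41 of 63 and rose in 4 (median log2 -0.90), but their median against Ly6C-high RM was 0.21. Among the 20 largest falls, Rpl29 had 0.386 and 0.134 CPM in KN-RM, against 68.4 and 39.3 CPM in blood monocytes, and Rpl19 0.276 and 0.535 CPM in KN-RM, against 65.6 and 53.4 CPM in blood monocytes. Both have near-identical copies in the genome, so their counts are uncertain. Their level also differed between library sets of 1 cell type: Rpl19 ran from 38.3 to 42.8 unscaled CPM in Kupffer cells after 4 weeks of diet and from 0.111 to 0.356 after 20 weeks. Rpl29 had a log2 change of -7.60, and -8.54 without KN-RM replicate 1. Of the globin genes among these 20, Hbb-b1 had 3.25 and 1.14 CPM in KN-RM, against 92.5 and 427 CPM in blood monocytes, and Hbb-b2 0.552 and 0.134 CPM in KN-RM, against 18.0 and 87.7 CPM in blood monocytes, with unequal blood libraries. Hbb-b1 had a log2 change of -6.84, and -7.56 without blood replicate 1, -5.36 without blood replicate 2 and -7.80 without KN-RM replicate 1. Hbb-b2 had a log2 change of -7.16, and -7.90 without blood replicate 1, -5.63 without blood replicate 2, -8.51 without KN-RM replicate 1 and -6.55 without KN-RM replicate 2. The part of mapping, library making and erythrocytes in these falls was not tested.

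A second set of KN-RM, from mice that carried floxed alleles of both LXR genes and no Cre, after 20 weeks of NASH diet (3 libraries of 2994641 to 4319907 counts), was set against the same blood libraries as an alternative. Against blood, 10108 genes were called with them, 5338 higher and 4770 lower. All 18 Kupffer identity genes were again higher and all 17 monocyte genes lower, and 17 of 22 cell cycle genes were higher and 1 lower. Clec4f had 928, 1864 and 1395 CPM, Nr1h3 242, 302 and 318 CPM, Chil3 0, 0 and 0 CPM and Top2a 43.6, 116 and 98.3 CPM in these libraries. Lysosome genes, however, came to 9 higher and 8 lower, oxidative phosphorylation genes to 0 and 30, cholesterol synthesis genes to 3 and 11, LXR target genes to 5 and 3, and lipid-associated macrophage genes to 13 and 5, and the log2 change of Trem2 turned to -0.63. In that set the change, here log2 of the ratio of mean CPM + 1 to that of blood, also moved with transcript length. Its median ran from -0.66 among the shortest transcripts (up to 1767 bases) to 0.64 among the longest (4306 bases or more). For KN-RM of the main set the medians were 0.13 and 0.00383, but of fitted edgeR log2 changes, which are another measure. What part length plays in these differences was not tested.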

How the data were processed

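RNA-seq of sorted cells was deposited by the authors as whole-number counts and as TPM per transcript, both over exons of mm10 RefSeq genes from HOMER analyzeRepeats.pl, per the file headers. STAR, HOMER and DESeq2 are named in the submitters' processing notes without versions. The deposited counts were summarised to 24941 symbols, keeping for each the transcript with the most counts over all 57 libraries of the series, whole livers included. The 12 libraries were then taken from these counts. edgeR 4.0.16 (R 4.3.3, TMM, filterByExpr with a minimum count of 10, quasi-likelihood test, 6 residual degrees of freedom) was fitted over 6 groups of 2, which share 1 estimate of the spread, and p-values were adjusted over 14407 genes at 0.05. The edgeR test of KN-RM against blood was checked on simulated counts, with far fewer genes changed than were called here. The 2-fold null, DESeq2 and limma were not checked in this way. Alternatives were limma 3.58.1 on log2(TPM + 1) from the deposited TPM, DESeq2 1.42.0, other filters and scalings, a replicate block, each library left out, and Cre-negative KN-RM. Named genes were the 20 largest rises and falls that passed in every fit without 1 library, the gate genes, and within each list the largest changes, the most abundant genes and those not called. The comparison, the lists and the members named were chosen with earlier results of these data known. Whether counting used strand is not given in the sources used here, so overlapping genes cannot be told apart. Most list members are counted in their lists and not named.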

Additional observations from a re-analysis of the deposited data

How the results depend on the processing

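With a null of at least 2-fold (glmTreat), 3987 genes were called against blood (2855 higher, 1132 lower) and 1672 against Ly6C-high RM (742 higher, 930 lower). In limma on log2(TPM + 1), 3215 genes were higher than in blood, and 1652 were higher and 4413 lower than in Ly6C-high RM. Leaving out 1 library gave 7056 to 7612 calls against blood (4102 to 4390 higher, 2859 to 3381 lower) and 3417 to 4236 against Ly6C-high RM (1849 to 2045 higher, 1568 to 2279 lower), the fewest without KN-RM replicate 2 against blood and without KN-RM replicate 1 against Ly6C-high RM. A group left with 1 library was assumed to vary like the others. DESeq2 called 8483 and 5325 genes in the 2 comparisons. A replicate block called 8953 and 6003; the labels do not say that the numbers pair libraries, and deviations of same-numbered libraries correlated at -0.0096 between KN-RM and blood but at 0.505 between KN-RM and Ly6C-high RM, and at 0.317 to 0.567 among the NASH liver groups. With 2 numbers, whether these mark a shared batch cannot be settled here. The block added calls for Marco and Cd163 against Ly6C-high RM (adjusted p = 0.0157 and 0.0153, edgeR). Among genes named, 4 had the opposite sign to the main edgeR fit with Cre-negative KN-RM. Trem2, Actb, Psap and Tmsb4x had log2 changes of -0.63, -0.60, -1.60 and -1.96 from blood there, and were above blood in the main fit. On deposited TPM, however, the main KN-RM means of Actb, Psap and Tmsb4x were already below those of blood, so their turn depends on the scale. The cause was not tested. With 2 libraries a group, the spread rests on 6 residual degrees of freedom, and genes without a count in a group have no upper limit of the fold.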
